A study of Mus musculus with 8 samples.

Results

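The genes of the G1 phase engine of the cell cycle were followed through the first day and beyond of serum-to-2i conversion: the D cyclins (Ccnd1, Ccnd2 and Ccnd3), the E cyclins (Ccne1 and Ccne2), their kinases (Cdk4, Cdk6 and Cdk2) and the CIP/KIP inhibitors Cdkn1a and Cdkn1b. They are 10 of the 37263 genes counted and were found by symbol in the GENCODE M21 annotation. All 10 were among the 14931 genes that passed the expression filter of at least 1 CPM in at least 2 libraries. For the filter, CPM was the count relative to the library total, without scaling. The CPM values below were TMM-scaled and relative to the summed counts of the genes that passed.

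RNA was sequenced from E14 cells, a mouse ESC line from the strain 129/Ola grown without feeders and with LIF. Both treatments began when medium with fetal calf serum was exchanged for serum-free 2i medium, which holds the MEK inhibitor PD0325901 and the GSK3 inhibitor CHIR99021, and 1 of them also had 17 µM vitC. Each treatment was sampled at 4, 16, 24 and 32 hr, with 1 library per combination and 8 libraries in all. Every library, those at 4 hr included, had therefore been exposed to both inhibitors and to serum-free medium, no serum library was analysed here, and the effects of MEK inhibition, GSK3 inhibition and the change of medium cannot be told apart.

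D cyclins are the mitogen sensors of the cycle. They activate Cdk4 and Cdk6, and Ccnd1 is a classical target of the MEK-ERK cascade. E cyclins activate Cdk2 at entry into S phase and are transcribed by E2F factors, which the retinoblastoma family restrains until cyclin-dependent kinases phosphorylate it. Cdkn1a (p21) and Cdkn1b (p27) bind cyclin-kinase complexes and slow entry into S phase, with Cdkn1a a well-known p53 target and Cdkn1b a FOXO target. Mouse ESCs are known for a short G1 phase and for abundant cyclin E.

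The total counts were between 12940716 and 18434932 in 2i and between 4753528 and 13157570 with vitC. The 8 pluripotency markers summed to between 1880 and 2452 CPM in every library, with opposite moves within the list: Pou5f1 was at 505.5 and 465.2 CPM at 4 hr and from 280.4 to 346.2 CPM later, and Sox2 was at 145 and 119.8 CPM at 4 hr and at 204.6 CPM or more later. Libraries also differed in the share of counts on Lars2 and 2 features that vary with it (Gm23935 and ENSMUSG00000093077), which was 0.0277% and 0.0113% in the 4 hr libraries, 0.206% and 0.564% in 2i at 16 and 32 hr, and from 4.21% to 7.11% in the remaining 4. Lane 8 carried the libraries of 4 and 24 hr and lane 7 those of 16 and 32 hr. The comparisons 24 hr against 4 hr and 32 hr against 16 hr are thus within a lane, but in 16 or 32 hr against 4 hr an effect of lane cannot be told apart from time.

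Promoter sequence from RefSeq (GRCm38.p6) was found for 7 of the 10 members, with none for Ccnd1, Ccnd2 and Ccne2. The stretches below lie just before annotated starts, on the strand of the gene, and are shown because Ccne1 and Cdkn1a changed over time while Cdk2, their common partner, did not pass the test. Capitals mark a motif match. The Cdkn1a stretch (chr17:29090729-29090975, plus strand) holds a match to the p53 motif with 1 mismatch outside its core, 51 to 32 bases before the more upstream of the 2 RefSeq starts. The Cdk2 stretch (chr10:128705052-128705301, minus strand) holds an E2F motif read on the opposite strand, 140 to 133 bases before the start, and the Ccne1 stretch (chr7:38107535-38107740, minus strand) holds neither motif.
Cdkn1a: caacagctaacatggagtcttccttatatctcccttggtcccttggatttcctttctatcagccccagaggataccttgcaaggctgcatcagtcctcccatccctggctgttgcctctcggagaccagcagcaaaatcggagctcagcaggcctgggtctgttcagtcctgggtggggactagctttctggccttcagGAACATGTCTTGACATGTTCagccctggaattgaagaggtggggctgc
Cdk2: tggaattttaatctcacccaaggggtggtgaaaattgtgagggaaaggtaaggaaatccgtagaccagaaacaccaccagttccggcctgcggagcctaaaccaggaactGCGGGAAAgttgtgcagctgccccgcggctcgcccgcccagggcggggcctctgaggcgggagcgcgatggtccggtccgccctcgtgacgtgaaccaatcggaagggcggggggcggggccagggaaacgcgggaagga
Ccne1: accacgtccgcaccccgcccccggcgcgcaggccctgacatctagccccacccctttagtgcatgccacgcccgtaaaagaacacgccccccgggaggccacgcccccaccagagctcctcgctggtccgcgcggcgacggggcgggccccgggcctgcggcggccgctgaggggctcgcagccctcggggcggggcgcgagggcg

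The E2F motif was searched as TTTCCCGC, TTTGGCGC, TTTCGCGC or TTTGCCGC on both strands and occurred in 611 of 32851 promoters (1.86%). The p53 motif, a pair of adjoining half-sites, occurred with at most 1 mismatch outside the core in 15 of them (0.0457%). This allowance was chosen after the Cdkn1a sequence had been seen. In the 250 bases before each of the 9 RefSeq starts of the 7 members, no other match to either motif was found.

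The composition of the D cyclins changed over time. By 32 hr Ccnd1 had come down to 0.343 of its 4 hr level in 2i and 0.206 with vitC, while Ccnd2 had risen 2.18-fold in the fit over both treatments. By the length-scaled levels given below, the summed D cyclin level went down and its make-up became more even. Ccnd1 stood at 275.5, 153.4, 118.1 and 94.5 CPM at 4, 16, 24 and 32 hr in 2i, and at 298.9, 93.8, 81.2 and 61.5 CPM with vitC. All 6 later libraries were below both 4 hr libraries, as were those of 19.0% of all genes tested. In an additive model of time and treatment, the log2 fold change against 4 hr was -1.27 (SE 0.19) at 16 hr, -1.57 (SE 0.19) at 24 hr and -1.93 (SE 0.19) at 32 hr, with adjusted p-values of 0.00142, 0.000288 and 4.52e-05 (edgeR quasi-likelihood test, Benjamini-Hochberg over all genes). In bulk RNA, fewer cells with a transcript and less of it per cell cannot be told apart.

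Ccnd2 went the opposite way. It was measured at 21.4, 39.1, 48.4 and 54.6 CPM in 2i and at 24.2, 36.6, 43.6 and 45.2 CPM with vitC. All later libraries were above both 4 hr libraries, as for 18.7% of all genes. Its log2 fold change reached 1.01 (SE 0.17) at 24 hr and 1.12 (SE 0.17) at 32 hr, with edgeR adjusted p-values of 0.00198 and 0.000684.

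Ccnd3, the third D cyclin, moved little. Its values were 84, 116.8, 95.3 and 113.5 CPM in 2i and 91.2, 117.6, 115.1 and 129.6 CPM with vitC. Those of the later times were again above both 4 hr libraries, as for 18.7% of all genes. The rise passed the edgeR test at 32 hr (log2 fold change 0.47, SE 0.14, adjusted p = 0.0236) and, barely, at 16 hr (0.42, adjusted p = 0.0496), but not at 24 hr (0.26, adjusted p = 0.202). The 16 hr call was lost under 15 of 17 other settings, and the 32 hr call under 6 of 17, a GC and length correction among them (adjusted p = 0.298).

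**Figure D1:**
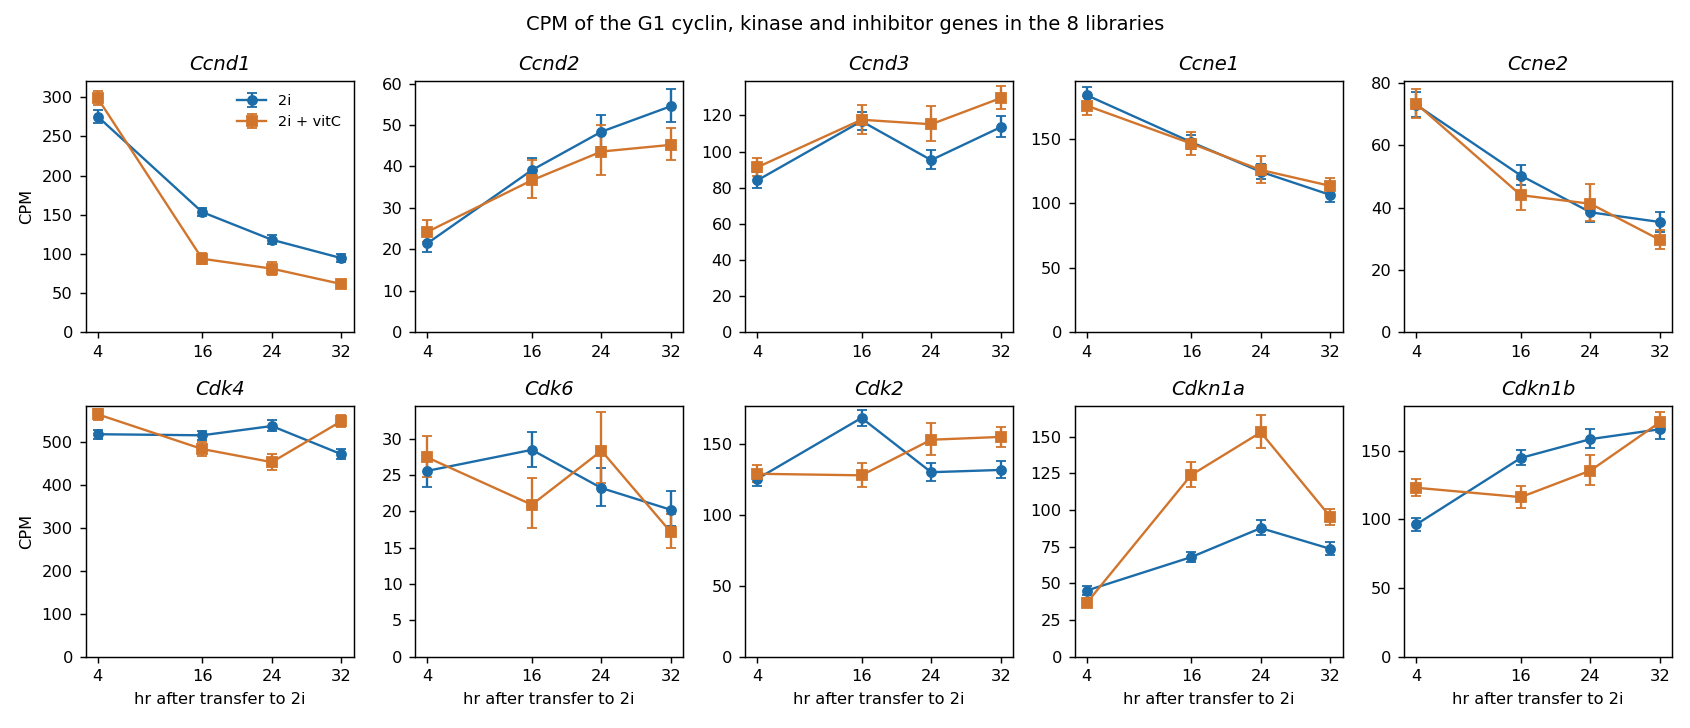
CPM (y axis, linear from 0, a different scale in each panel) of the 10 genes against hr after transfer to 2i (x axis), with 1 point per library in 2i (circles) and 2i with vitC (squares) and bars for the Wilson 95% interval of the counts. Ccnd1, Ccne1 and Ccne2 go down from 4 hr in both treatments, Ccnd2 and Cdkn1a go up, and Cdk4 stays between 454 and 566 CPM.

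Levels of different genes were compared as RPKM, CPM per kilobase of merged exons. The merged length takes in the exons of all annotated transcripts (4709 bases for Ccnd1, 9409 for Ccnd2 and 8775 for Ccnd3). A gene whose main transcript is much shorter is understated, and which transcripts the cells use was not tested. Shares, sums and orders across genes, here and below, depend on these lengths. At 4 hr Ccnd1 supplied 83.2% of the summed D cyclin RPKM in 2i and 83.0% with vitC. At 32 hr it supplied 51.7% and 40.0%, and in the vitC library Ccnd3 had the largest share by this measure, at 45.3%. The Ccnd2 share grew from 3.24% to 14.9% in 2i and from 3.37% to 14.7% with vitC. The sum of all D cyclins went from 70.3 to 38.8 RPKM in 2i and from 76.4 to 32.6 RPKM with vitC, so the rises of Ccnd2 and Ccnd3 were smaller in RPKM than the fall of Ccnd1.

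**Figure D2:**
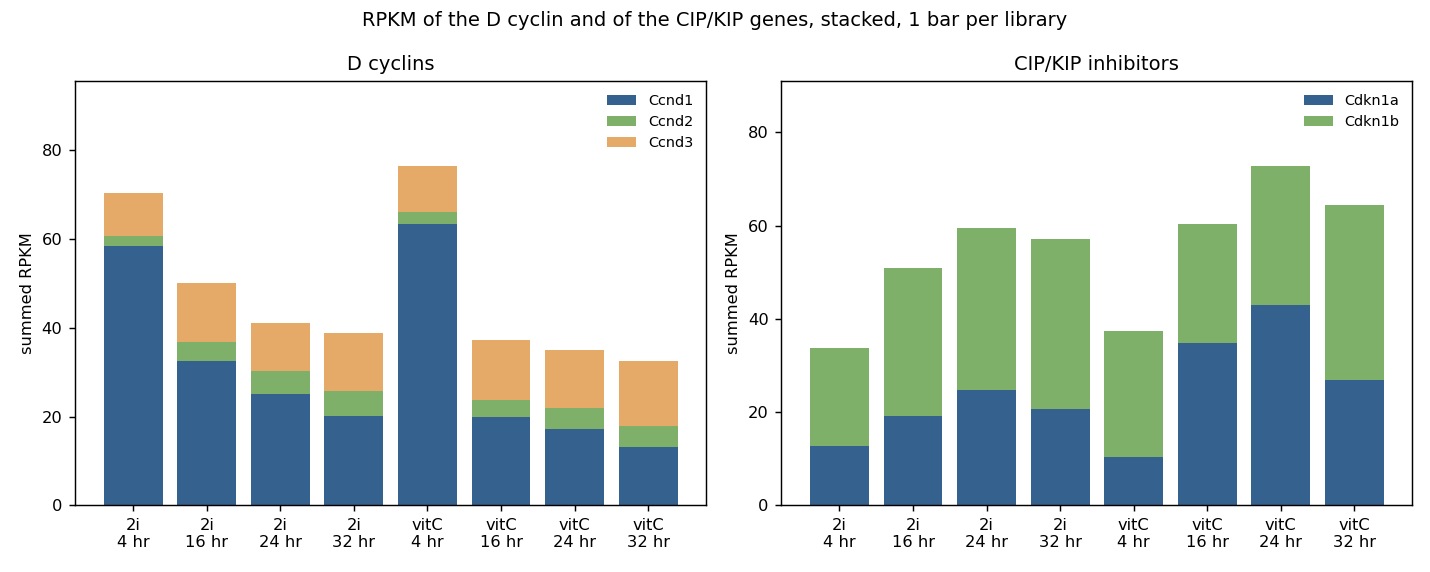
Stacked RPKM (y axis, from 0) of the D cyclin genes (left) and the CIP/KIP inhibitor genes (right), with 1 bar per library and no replicate error. The D cyclin bars shrink from 70.3 and 76.4 RPKM at 4 hr to 38.8 and 32.6 RPKM at 32 hr, with the loss in Ccnd1, while the inhibitor bars grow.

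Both E cyclins, the activators of Cdk2, went down together. Ccne1 was at 183.8, 147.4, 124.4 and 106.4 CPM in 2i and at 175.7, 146.3, 125.8 and 113.4 CPM with vitC, values that decreased at each step in both treatments. Its log2 fold change was -0.52 (SE 0.13, edgeR adjusted p = 0.0157) at 24 hr and -0.71 (SE 0.13, adjusted p = 0.00232) at 32 hr, while at 16 hr it was -0.29 and did not pass (adjusted p = 0.144). Ccne2 was at 73, 50.3, 38.5 and 35.4 CPM in 2i and at 73.4, 44, 41.2 and 29.6 CPM with vitC. It fell by 0.63, 0.88 and 1.17 on the log2 scale at 16, 24 and 32 hr (SE 0.16 each, edgeR adjusted p = 0.0175, 0.00275 and 0.000336). For both genes all later libraries were below both 4 hr libraries, as for 19.0% of all genes.

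Ccne1 remained the dominant E cyclin, with 75.9% to 83.4% of their summed RPKM. After Cdk4 it had the highest RPKM of the 10 genes in every library, at 40 to 69.1, beside 13.1 to 63.5 for Ccnd1. The E cyclin sum went from 89.9 to 50.1 RPKM in 2i and from 87 to 51.1 RPKM with vitC.

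In edgeR with the settings used throughout, none of the 3 kinase genes was called at any time. Cdk4, the main D cyclin partner, lay between 454 and 566 CPM in all libraries and made up 84.0% to 88.5% of the kinase RPKM. Its log2 fold change at 24 hr was -0.13 (SE 0.15, edgeR adjusted p = 0.578), against -1.57 for Ccnd1. Cdk2 was at 125.4, 168.5, 130.2 and 131.8 CPM in 2i and at 129.1, 128, 153.1 and 155.1 CPM with vitC. Cdk6, the other D cyclin partner, was the lowest of the 10 genes by RPKM in every library, at 1.22 to 2.04, and its log2 fold change at 32 hr was -0.51 (SE 0.21, adjusted p = 0.0954). After the GC and length correction Cdk6 passed at 32 hr (-0.62, adjusted p = 0.0497).

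Both inhibitor genes rose, with Cdkn1a past the test from 16 hr on and Cdkn1b at 32 hr only. In 2i alone the rises at 16 hr were alike, 1.505-fold for Cdkn1a and 1.503-fold for Cdkn1b. With vitC they were 3.375-fold and 0.944-fold. Cdkn1a was at 45.1, 67.9, 87.7 and 73.5 CPM in 2i and at 36.7, 123.8, 152.9 and 95.3 CPM with vitC. All later libraries were above both 4 hr libraries, as for 18.7% of all genes, and in each treatment the highest value was at 24 hr. The log2 fold change was 1.14 (SE 0.23) at 16 hr, 1.47 (SE 0.23) at 24 hr and 0.99 (SE 0.23) at 32 hr, with edgeR adjusted p-values of 0.00708, 0.00137 and 0.00789. Without the vitC library at 4 hr, the lowest of all, these values were 0.67 at 16 hr and 0.55 at 32 hr, and without the 2i library at 4 hr the value at 32 hr was 1.54.

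Cdkn1b was at 96.3, 144.7, 158.4 and 165.6 CPM in 2i and at 123, 116.2, 135.5 and 170.8 CPM with vitC. The vitC library at 16 hr was below the one at 4 hr, so that its later libraries overlapped with the 4 hr libraries. In the edgeR test 32 hr passed (log2 fold change 0.62, SE 0.17, adjusted p = 0.0177) and 24 hr did not (0.42, adjusted p = 0.0928). At 24 hr it passed without a low-count filter (0.42, adjusted p = 0.0497) or without the vitC library at 4 hr (0.69, adjusted p = 0.0496). At 32 hr it was 0.37 without the 2i library at 4 hr (adjusted p = 0.185), and the adjusted p was 0.095 and 0.132 without the 2i or the vitC library at 32 hr.

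Cdkn1b had the higher RPKM of the pair in 6 of 8 libraries. In the vitC libraries at 16 and 24 hr Cdkn1a was higher, with 57.7% and 59.1% of their sum, against 27.6% at 4 hr with vitC. The sum of both went from 33.9 to 57.1 RPKM in 2i and from 37.4 to 64.3 RPKM with vitC between 4 and 32 hr. In the same interval the D and E cyclin sums went down. By merged exon length the inhibitor sum was below the D cyclin sum at 4 hr and above it at 32 hr in both treatments. Other transcript lengths could change that order.

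**Figure D3:**
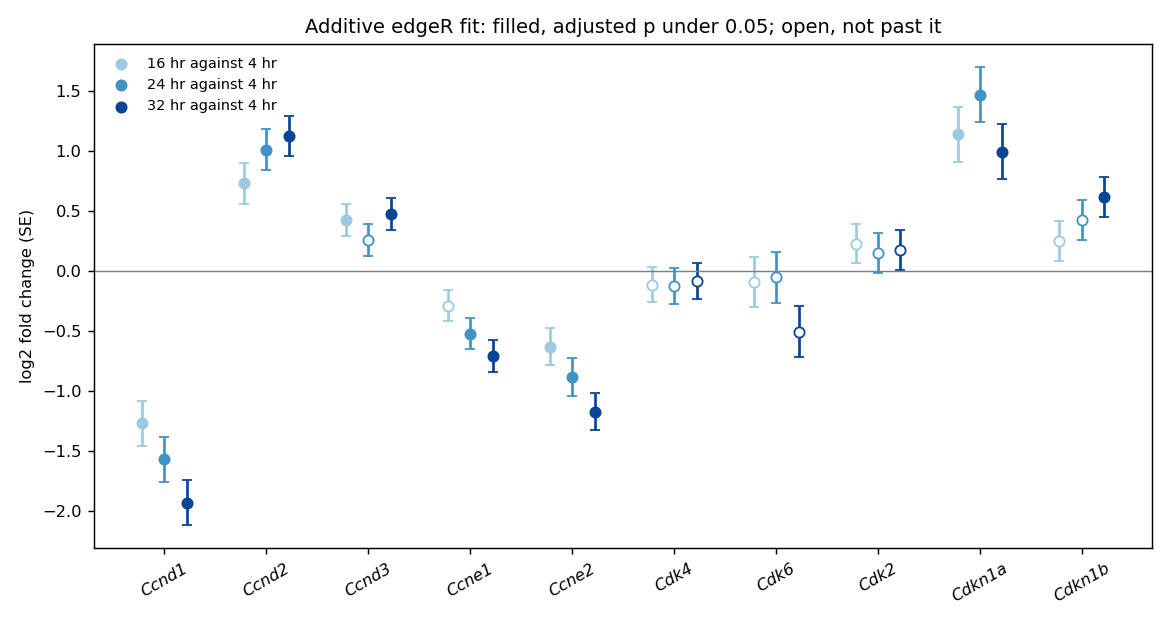
Log2 fold change against 4 hr (y axis) of each gene (x axis) at 16, 24 and 32 hr in the additive edgeR model of all 8 libraries, with bars of 1 SE. Filled points passed an adjusted p of 0.05 and open points did not. Ccnd1 and both E cyclins lie below 0, Ccnd2, Ccnd3 and Cdkn1a lie above it, and no kinase point is filled, with Cdk6 at -0.51 at 32 hr.

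Among the 10 genes, 5 passed the test at 16 hr (3 higher and 2 lower), 5 at 24 hr (2 higher and 3 lower) and 7 at 32 hr (4 higher and 3 lower) against 4 hr. Of all genes tested, 16.4%, 20.5% and 25.3% passed. From 16 to 32 hr, within lane 7, no member passed in edgeR or DESeq2, where 0.583% of all genes did in edgeR. At an unadjusted p under 0.05 there were 5 members in edgeR and 3 in DESeq2, beside 2129 and 1655 of the 14931 genes tested. Ccnd1 (log2 fold change -0.66), Ccne2 (-0.54), Ccne1 (-0.42), Ccnd2 (0.39) and Cdkn1b (0.37) were the 5 in edgeR. Each had the sign of its 32 hr against 4 hr value, which rests on the same 32 hr libraries. In these tests each gene has 3 residual degrees of freedom, and edgeR also draws on the spread of the other genes. The error comes from how far the time courses of both treatments differ, since no culture was repeated.

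Leaving out single libraries left the Ccnd1 calls, the Ccnd2 calls at 24 and 32 hr, the Ccne2 call at 32 hr and the Cdkn1a call at 24 hr in place each time. Of the 5 members called at 16 hr, 2 passed without the 2i library at 16 hr or the vitC library at 4 hr, and 3 without the 2i library at 4 hr or the vitC library at 16 hr. At 24 hr 3 passed without the 2i library at 24 hr, and at 32 hr 3 passed without the 2i library and 4 without the vitC library of that time.

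The direction was kept in every call lost in this way. At 16 hr Ccnd2 missed the test without either 2i library of 4 or 16 hr (edgeR adjusted p = 0.104 and 0.06), Ccne2 without the 2i library at 16 hr or the vitC library at 4 or 16 hr (0.0619, 0.112 and 0.0908) and Cdkn1a without the vitC library at 4 hr (0.0831). At 24 hr Ccne1 missed it without any 1 of the 4 libraries of 4 and 24 hr (0.0674 to 0.136) and Ccne2 without the 2i library (0.0516). At 32 hr Ccne1 missed it without the 2i library (0.0505), Ccnd3 without any 1 of the 4 libraries of 4 and 32 hr (0.0794 to 0.133), and Cdkn1a without the 2i or vitC library at 32 hr or the vitC library at 4 hr (0.104, 0.0643 and 0.0988). The remaining library of a time point is assumed to vary like the others in these fits.

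The share of counts on Lars2 was lowest at 4 hr. With its logarithm as a covariate no member passed in edgeR at any time. In that setting 73, 0 and 159 of all 14931 genes passed at 16, 24 and 32 hr against 4 hr. At an unadjusted p under 0.05 there were 2, 2 and 6 members at 16, 24 and 32 hr. Of the 14931 genes tested, 2178, 1416 and 2394 were under it. The log2 fold changes at 24 hr were then -0.61 for Ccnd1, against -1.57 without the covariate, and 0.49 for Cdkn1a, against 1.47. The part of this share in the time course was not tested.

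Separation of the later from the 4 hr libraries was defined over both treatments together. It was met by 6 members, and by 18.7% (above) and 19.0% (below) of all genes tested. Between the treatments, no member passed in edgeR or DESeq2, where edgeR called 0.167% of all genes. Ccnd1 and Cdkn1a were the 2 members with an unadjusted p under 0.05 in either tool. Of the 14931 genes tested, 2062 in edgeR and 1674 in DESeq2 were under it too. A p-value that misses the threshold does not show that vitC left the other genes alone, and each ratio below compares 1 library with 1 library.

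Ccnd1 was lower with vitC at 3 of 4 times. The log2 ratio of vitC to 2i was 0.12 at 4 hr (95% counting interval 0.06 to 0.18), -0.71 at 16 hr (-0.83 to -0.59), -0.54 at 24 hr (-0.70 to -0.38) and -0.62 at 32 hr (-0.75 to -0.49). The fitted vitC effect was -0.43 (SE 0.13, edgeR adjusted p = 0.158).

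Cdkn1a gave the reverse picture. Its log2 ratio was -0.30 at 4 hr (-0.46 to -0.13), 0.87 at 16 hr (0.74 to 0.99), 0.80 at 24 hr (0.67 to 0.94) and 0.37 at 32 hr (0.25 to 0.50). The fitted vitC effect was 0.45 (SE 0.16, edgeR adjusted p = 0.232). When either 4 hr library was left out, the time with the opposite sign no longer entered and both effects were larger. They were -0.63 and -0.61 for Ccnd1 and 0.68 and 0.70 for Cdkn1a. Without 1 of the libraries of 16 or 24 hr both effects were smaller, -0.33 to -0.40 for Ccnd1 and 0.30 to 0.32 for Cdkn1a.

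The vitC libraries at 16, 24 and 32 hr had 7.11%, 6.37% and 4.21% of their counts on Lars2 and its companions, against 0.206%, 5.92% and 0.564% in 2i. At 24 hr, where the shares were 6.37% and 5.92%, the ratios of Ccnd1 and Cdkn1a were -0.54 and 0.80. With the share as a covariate the vitC effects were -0.24 for Ccnd1 and 0.23 for Cdkn1a, with adjusted p-values of 0.621 and 0.738.

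**Figure D4:**
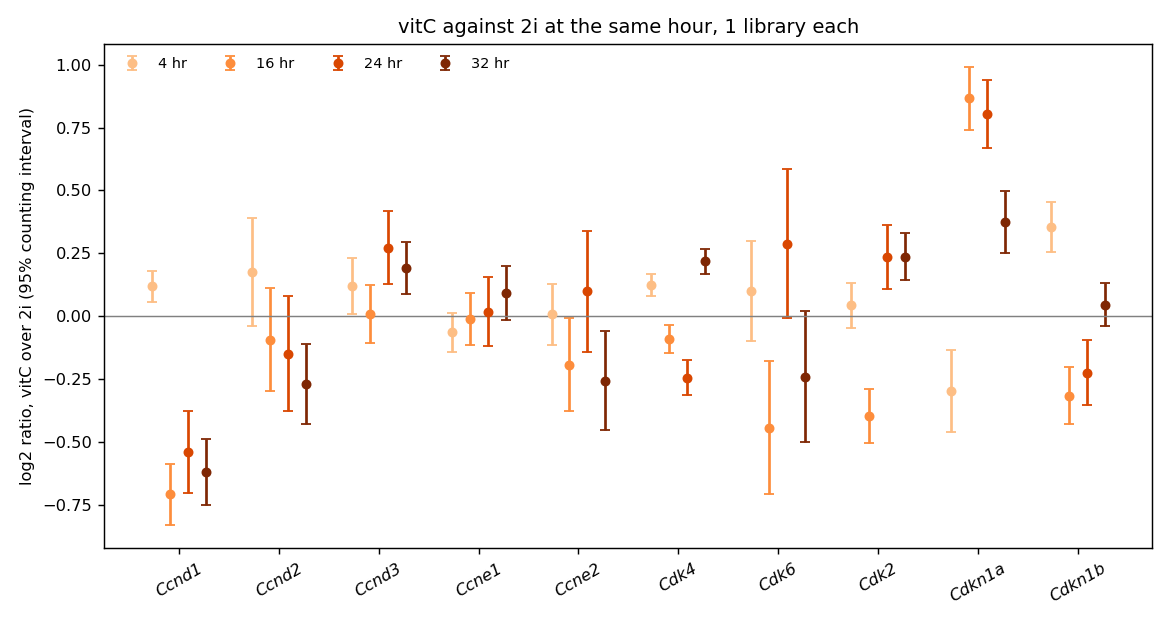
Log2 ratio of CPM with vitC to CPM in 2i (y axis) for each gene (x axis) at 4, 16, 24 and 32 hr, with 1 library on each side and bars for the 95% counting interval, which leaves out variation between cultures. Ccnd1 is below 0 and Cdkn1a above 0 at 16, 24 and 32 hr, with the opposite sign at 4 hr, while Ccne1 stays between -0.07 and 0.09.

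For the remaining members the ratios were smaller or changed sign. Ccne1 had ratios from -0.07 to 0.09 and every counting interval reached 0. Cdkn1b was higher with vitC at 4 hr (0.35) and lower at 16 and 24 hr (-0.32 and -0.23). The kinases showed both signs, as with Cdk2 at -0.40 at 16 hr and 0.23 at 24 hr. A linear change of the vitC effect over hours was called in edgeR for no member and for 0.0% of all genes, with 0 members and 431 genes at an unadjusted p under 0.05, and DESeq2 called 0 members and 1 gene. In that test each gene has 2 residual degrees of freedom, and the spread of the other genes again enters. Without a filter edgeR called 5 genes and without single libraries 0 to 25, none of them a member.

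Known MEK-ERK response genes gave a reference for the pathway the inhibitor targets. Of 13 tested, 3 fell and 1 rose at 24 hr, with a median log2 fold change of -0.30 against 0.01 for all genes. Of all genes tested, 11.5% rose and 8.98% fell at 24 hr, which is the background for the lists below too. Etv4, an ERK-induced ETS factor, dropped from 54.8 CPM at 4 hr to 1.88 CPM at 24 hr in 2i (log2 fold change -5.38, SE 0.38, edgeR adjusted p = 9.05e-06). The phosphatase genes Dusp4 (-3.55) and Dusp5 (-1.29) fell as well, whereas the feedback inhibitor Spry2 rose (0.86). Since the first sample was taken after 4 hr in the inhibitor, any earlier change is not in these values.

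The other cyclins, kinases and inhibitors of G1 and S phase had a median of -0.27 at 24 hr. Of 17, 4 fell and none rose, a called share close to the 20.5% of all genes. At 32 hr 8 fell and none rose, beside 11.8% and 13.5% of all genes. The 4 at 24 hr were Cdkn1c (-1.11), the third CIP/KIP inhibitor, Cks1b (-0.77), a kinase subunit, Cdc25a (-0.74), a phosphatase that activates Cdk2, and Ccnc (-0.52), cyclin C of the Mediator kinase. Cdkn1c thus fell where Cdkn1a rose, with 15.8 and 10.7 CPM in the 4 hr libraries and 6.12 and 6.23 CPM in those of 24 hr.

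Among 17 pocket protein, E2F and DP genes, 1 rose and 2 fell at 24 hr, a called share below the 20.5% of all genes, with a median of 0.12. E2f1 rose (0.97, edgeR adjusted p = 0.0128), while its dimerisation partners Tfdp2 (-0.66) and Tfdp1 (-0.48) fell. Of 20 E2F targets of replication, 4 fell and none rose at 24 hr, a called share close to that of all genes (20.5%), with a median of -0.25. At 32 hr 6 fell, Ccne1 and Ccne2 among them, and 1, Dnmt1, rose (0.46, chosen after its value was seen). Beside these, 11.8% of all genes fell and 13.5% rose. Ccne2 and Ccne1 themselves are 2 of the 4 at 24 hr, and the others are the replicative helicase subunits Mcm5 (-0.54) and Mcm7 (-0.50).

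The p53 targets other than Cdkn1a differed from it at 24 hr. At 24 hr 7 of 20 fell and none rose, beside 8.98% and 11.5% of all genes, with a median of -0.38, when Cdkn1a rose by 1.47 on the log2 scale. Perp, a cell adhesion gene, had the largest fall (-1.46, SE 0.19, edgeR adjusted p = 0.000391), followed by Rps27l (-0.84), Plk2 (-0.79) and Eda2r (-0.76). The summed level of the 20 genes, 3409 and 3606 CPM at 4 hr, was 2271 to 2975 CPM in the later libraries, with no overlap. Rises were called at the other times, for Btg2 at 16 hr (0.55, with 7 others lower) and for Gdf15 (2.00) and Btg2 (0.46) at 32 hr (with 6 others lower), named after their values were seen. Of all genes, 9.16% rose and 7.24% fell at 16 hr, and 13.5% rose and 11.8% fell at 32 hr.

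FOXO targets had a median of 0.35 at 24 hr. Of 12, Cdkn1b included, 3 rose and 1 fell at that time, beside 11.5% and 8.98% of all genes, with Cdkn1b not past the test. At 32 hr 6 rose, Cdkn1b itself among them, and none fell, beside 13.5% and 11.8% of all genes. The 3 higher at 24 hr were Sesn3 (1.18), a stress-response gene, Insr (0.92), the insulin receptor, and Ccng2 (0.78), an atypical cyclin. Irs2 (-0.76), an insulin receptor adaptor, was the 1 lower. In none of the 6 lists was a gene called between vitC and 2i by edgeR, which called 0.167% of all genes. With the Lars2 share as a covariate no gene of any list was called at 24 hr, since 0 of all genes were, with 1416 at an unadjusted p under 0.05, whereas DESeq2 called 2892 genes without it.

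By the profile of log2 CPM over the 8 libraries, the protein-coding genes most like Ccnd1 were Npr3, Gm11627 and 2810004N23Rik (Pearson's r from 0.989 to 0.998 among 10458 genes compared). Those most like Ccnd2 were Fut9, Dock9 and Hk2 (0.986 to 0.992), and those most like Cdkn1a were Slc4a2, Castor2 and Bag3 (0.989 to 0.995). Tmem216, Xpo1 and Gcsh were nearest to Ccne2 (0.987 to 0.994), and Cntn2, Heatr3 and Samd4 to Ccne1 (0.980 to 0.985). Ly75, Asah1 and Qsox2 were nearest to Cdkn1b (0.970 to 0.977) and Cenpx, Ezh1 and Pigq to Ccnd3 (0.968 to 0.990). For the kinases these were Psmb1, Mrpl54 and Jpt1 with Cdk4, Pigo, Lamp1 and Mmd with Cdk2, and Atl3, Zbtb6 and Zdhhc3 with Cdk6 (0.910 to 0.966). These are descriptions over 8 libraries that share times, lanes and depths.

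Markers of other cell types moved over the same hours. The 7 fibroblast markers summed to 117.9, 263.2, 367.3 and 291.7 CPM in 2i and to 97.9, 418.3, 674.9 and 417 CPM with vitC, with the maximum at 24 hr as for Cdkn1a. Most of this was Col1a1 and Col1a2, whereas Lum stayed at 0.429 CPM or less and Dcn between 0.316 and 3.00 CPM. The 6 trophoblast markers summed to 805.4 and 604.2 CPM in the 4 hr libraries and 414.2 and 364 CPM in those of 32 hr, most of it Krt8, with Cdx2 going from 8.91 and 11 CPM to 1.04 and 1.08 CPM. Within that list Tfap2c went up, from 52.5 and 53 CPM to 81.2 and 99.7 CPM, and the median log2 fold change of the 5 tested at 32 hr was 0.54, with 1 higher and 2 lower. The 6 primitive endoderm markers summed to between 8.67 and 26.2 CPM, and the 5 mesoderm and neural markers found to between 9.09 and 24.7 CPM, the latter highest in the 4 hr libraries. The part of such cells in the values of the 10 genes was not tested.

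Counts were assigned per gene, and a stranded library or strand setting is not given in the sources used here. In M21 (GRCm38) the exons of Ccnd1 overlap those of LTO1 by 1100 bases, Ccne2 those of Ints8 by 609, Cdk4 those of Tspan31 by 641, Ccnd3 those of Bysl by 361 and Cdk2 those of Pmel by 34, and reads in these stretches could not be told apart. No exon of Ccne1 or Cdkn1b overlaps with another gene.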

How the data were processed

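Total RNA was depleted of ribosomal RNA and sequenced as 50 bp single-end reads (TruSeq RNA). The authors deposited raw read counts per Ensembl gene and library, without normalization. The submitters' processing notes name GSNAP, HTSeq and the builds NCBIM37 and mm9. The annotation and the strand setting are not given in the sources used here. Symbols and exon lengths came from GENCODE M21, in which 32604 of 37263 identifiers were found, and gene positions (GRCm38) were used only for exon overlaps and promoters.

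CPM used edgeR's TMM factors, and RPKM divided it by merged exon length. Tests used edgeR 4.0.16 (quasi-likelihood, Benjamini-Hochberg over 14931 genes, threshold 0.05) in R 4.3.3, with time and treatment as additive factors, and a product of vitC and hours added for the last test. With 1 library per combination there were no replicate cultures. Intervals of single libraries are Wilson 95% intervals and those of ratios 95% Poisson intervals, both for counting error only. As alternatives, DESeq2 1.42.0 was run, and edgeR was run with RLE factors or library totals, with no filter or one at 5 CPM, after thinning to 4753528 counts, without the other factor, with a GC and length correction, with the Lars2 share as a covariate and without each library. Lanes came from the names of the deposited files.

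The members and lists were chosen with earlier results of these data known. From each list at most 4 genes with the largest change among those called at 24 hr against 4 hr are named, and at most 2 for vitC. For each member the 3 protein-coding genes most correlated with it in log2 CPM are named, among those that average 5 CPM or more.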

Additional observations from a re-analysis of the deposited data

How the results depend on the processing

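No library was a replicate, and 4753528 counts in the vitC library at 24 hr set the widest intervals. Each gene has 3 residual degrees of freedom, to which edgeR adds the spread of the other genes. Directions of called members were kept under all 17 alternatives. The cause of the differences between settings was not tested.

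The members called at 16, 24 and 32 hr against 4 hr were 0, 0 and 0 with the Lars2 share as a covariate, and 2 to 4, 3 to 5 and 3 to 7 when single libraries were left out. From 16 to 32 hr and for vitC, without a filter 1 and 2 members passed (Ccnd1, and Ccnd1 with Cdkn1a), and 0 to 1 and 0 to 2 when single libraries were left out. A vitC effect that changed with hours was called for 0 members throughout.

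Over all genes, 2448, 3061 and 3785 were called at 16, 24 and 32 hr against 4 hr. With the covariate there were 73, 0 and 159, without the treatment term 1289 and 1891 at 16 and 24 hr, and 647 to 2063, 748 to 3341 and 1403 to 4073 when single libraries were left out. After the GC and length correction 1137 rose and 1420 fell at 16 hr, 1400 and 1715 at 24 hr, and 1664 and 1984 at 32 hr, against 1367 and 1081, 1720 and 1341, and 2021 and 1764 without it. From 16 to 32 hr the count of 87 became 589 without a filter, 11 without the treatment term, 239 with DESeq2 and 2 to 140 when single libraries were left out. Of the 87 genes 50 rose and 37 fell, and after the GC and length correction 55 rose and 63 fell. For vitC the count of 25 (16 higher and 9 lower) became 54 with library totals (42 and 12), 690 without a filter, 13 at 5 CPM or after the GC and length correction, 122 after thinning, 0 without the time block, 4 with the covariate, 299 with DESeq2 and 0 to 458 when single libraries were left out. For the change with hours the count of 0 in edgeR (431 at an unadjusted p under 0.05) became 5 without a filter, 1 with DESeq2 and 0 to 25 when single libraries were left out. The model without the other factor was not run for it.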
